A study of Homo sapiens with 3 samples.

Results

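The chemokines and chemokine receptors were analyzed in HDLM-2, L-428 and L-540, which are Hodgkin's lymphoma (HL) lines. The members were all transcript clusters whose gene symbol in the platform annotation named a chemokine or a chemokine receptor, chosen by name and not by signal. These were 59 of the 22011 transcript clusters. Of the 59, 51 were paired with a single gene and 8 with several genes, so a signal of the latter cannot be assigned to one gene. RNA of each line was hybridized to 1 Affymetrix Human Exon 1.0 ST array. All 3 are established lines kept in culture, and each stands for a single case of HL. L-540 and HDLM-2 are known as lines of T cell origin and L-428 as a line of B cell origin. The labels of HDLM-2 and L-428, unlike that of L-540, speak of treated cells, with the histone deacetylase inhibitor vorinostat. The methods of the study do not say that cells for the arrays were treated. A treatment and the line therefore cannot be told apart, and with 1 array per line there is no replicate error and no test. Every difference below is a description of 3 arrays.

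Chemokines are small secreted proteins that guide the migration of leukocytes. They are grouped by the spacing of their conserved cysteines into the CC, CXC, CX3C and XC families, and they act on receptors coupled to inhibitory G proteins. Atypical receptors bind chemokines without this coupling and mostly remove them. In HL the malignant cells are a small minority of the tumor, and chemokines such as CCL17 and CCL22 are known for attracting T cells that carry the receptor CCR4.

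The signals are RMA normalized linear intensities, where a signal above 100 was called expressed, the threshold of the study. Of the 59 clusters, 7 were above 100 in at least 1 line (11.9%). Over all clusters of the arrays this share was 11.6%, so the chemokine genes were not set apart by it. The 7 were the receptors CCR7, CXCR4 and CCR4 and the ligands CCL22, CCL17, CCL1 and CX3CL1. In L-540 only CCR7 passed (1.69% of the members, against 7.17% of all clusters). In L-428 CCR7, CXCR4, CCR4, CCL1 and CX3CL1 passed (8.47%, against 10.2%). In HDLM-2 CCR7, CCL22 and CCL17 passed (5.08%, against 6.28%). CCR7 alone was above 100 in all 3 lines. The value just above the threshold was CCR4 in L-428 with 105, and those just below were CCL17 in L-428 with 79.3, CXCR4 in L-540 with 78.7 and CCL5 in L-428 with 77.2.

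**Figure D1:**
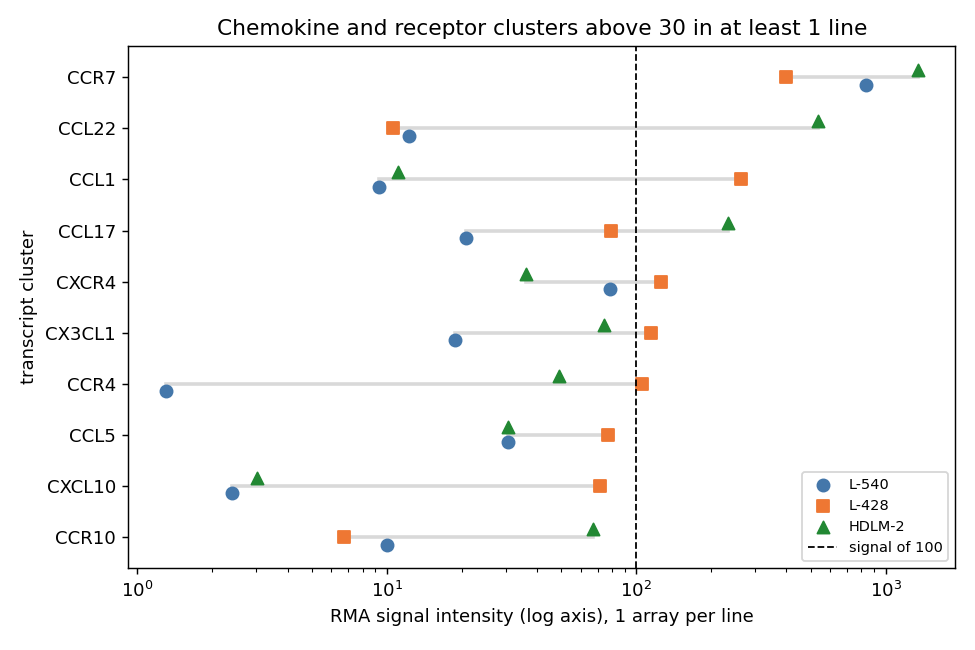
RMA signal intensity (log axis) of the 10 chemokine and receptor clusters above 30 in at least 1 line, 1 point per array, with a gray bar from the lowest to the highest line. CCR7 lies right of 100 in every line, CCL22 does so in HDLM-2 alone and CCL1 in L-428 alone.

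The arrays differed in scale, which bears on each comparison. Their medians were 7.41 in L-540, 7.16 in HDLM-2 and 9.18 in L-428, and on the log2 scale L-428 lay above L-540 by 0.31 and HDLM-2 below L-428 by a difference of -0.36. Of 8 HL cell markers 3 were above 100 in L-540, 4 in HDLM-2 and 6 in L-428, and 3 were so in all lines. Among these was TNFRSF8, which encodes CD30, with an identical 158 in L-540 and HDLM-2 and 145 in L-428. Another was IRF4, with an identical 598 in all lines. Such ties do not show equal expression. FUT4 was at or below 24.4 and CD40 at or below 12.2 in every line. None of 7 B cell markers and none of 7 monocyte and granulocyte markers was above 100 in any line. Of 9 T and NK cell markers 1 was, NKG7, a cytotoxic granule protein, with 168 in L-540. The summed signal of these markers was 228 in L-540, 75.5 in HDLM-2 and 71.9 in L-428, of which NKG7 alone gave 168, 14.5 and 15.8. The higher sum in L-540 thus came from NKG7, and the median of the 9 markers was 6.14 in L-540 and 5.32 in both other lines. CD3D, CD3E and CD3G were at or below 2.33 in every line. The part of these differences in the results below was not tested. In RNA of whole cultures, fewer cells that express a gene and less RNA per cell cannot be told apart.

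A cluster was counted as different between a pair of lines when its signals were at least 4-fold apart and the higher was above 100. For L-428 against L-540, 3 of the 59 members were higher and 0 lower, where 2.04% of all clusters were higher and 0.472% lower. For HDLM-2 against L-540, 2 were higher and 0 lower, where the shares over all clusters were 0.273% and 0.586%. For HDLM-2 against L-428, 1 was higher and 1 lower, against 0.427% and 2.93%. These 7 differences concerned the 4 ligands and CCR4. The median log2 difference of the members was 0 in each pair, as was that of all clusters. Of the 59 members, 26 were tied between L-428 and L-540, 25 between HDLM-2 and L-540 and 22 between HDLM-2 and L-428. The median fell among these ties, so nothing is read from it.

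CCL22 and CCL17 are the ligands of CCR4. CCL22, also known as macrophage-derived chemokine, had a signal of 12.2 in L-540, 535 in HDLM-2 and 10.6 in L-428. HDLM-2 was high and both other lines were low, with a 43.7-fold difference from L-540 and a 50.5-fold difference from L-428. The low value in L-428 was shared by 81 other clusters of that array, so the fold from L-428 has no exact meaning. The value in L-540 was not shared but was also low, so its fold is not read as exact either. CCL17, also known as thymus and activation-regulated chemokine and a serum marker of HL, had a signal of 20.9 in L-540, 233 in HDLM-2 and 79.3 in L-428. Its order was graded, with HDLM-2 11.2-fold above L-540 and 2.94-fold above L-428, and L-428 3.80-fold above L-540. CCL17 and CCL22 thus shared their highest line, but in L-428 CCL22 was not above L-540 while CCL17 was.

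CX3CL1, or fractalkine, is a chemokine anchored in the membrane of the cell that makes it. Its signal was 18.7 in L-540, 74.2 in HDLM-2 and 114 in L-428. L-540 was the low line, 6.12-fold below L-428 and 3.97-fold below HDLM-2, the latter just short of 4-fold and with neither value above 100. L-428 was 1.54-fold above HDLM-2 as deposited, but this order turned when the 3 arrays were quantile normalized, with 84.3 in L-428 and 99.4 in HDLM-2. CCL22, CX3CL1 and CCL17 are next to each other on chromosome 16 in the gene order of RefSeq (GRCh38.p14), and in this order each had its own pattern over the lines. They shared a low signal in L-540, with 20.9 as the highest of the 3 values.

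None of the genes around them was counted as different between lines. Of 20 neighbors with a single-gene cluster, 10 on each side of the chemokine genes, 3 were above 100 in at least 1 line, and none of these was 4-fold apart between any pair of lines. None of the 20 had its highest signal in HDLM-2 alone. CIAPIN1, the next of them after CCL17, had 21.1 in L-540, 10.9 in HDLM-2 and 7.10 in L-428, and PLLP, the next before CCL22, had 10.1, 9.31 and 7.48 in the same order. The arrays hold no measurement of DNA.

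**Figure D2:**
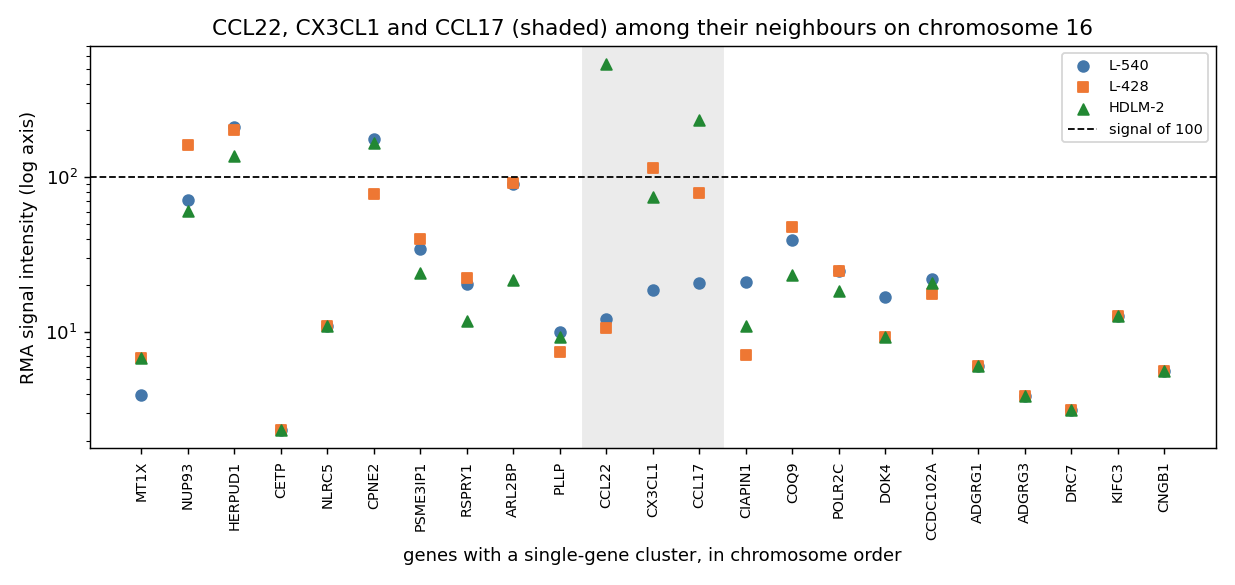
RMA signal intensity (log axis) of CCL22, CX3CL1 and CCL17 (shaded) and of 10 genes on each side in chromosome order, 1 point per line. HDLM-2 lies above both other lines at CCL22 and CCL17 and at none of the 20 neighbors. Some of these neighbors have identical values in all lines.

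CCL1 is a CC chemokine known for attracting T cells and monocytes. Its signal was 9.29 in L-540, 11.1 in HDLM-2 and 263 in L-428. L-428 was the only high line, 28.3-fold above L-540 and 23.8-fold above HDLM-2. The value in L-540 was shared by 242 other clusters of that array and is read as a low signal only. CCL5, also known as RANTES, had 30.5 in both HDLM-2 and L-540 and 77.2 in L-428. L-428 was the higher line by 2.53-fold, below the threshold used here. The tie does not show that HDLM-2 and L-540 express it equally.

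Of the CXC ligands 0 of 14 clusters were above 100. CXCL10, a ligand of CXCR3 that is induced by interferons, came nearest, with 2.39 in L-540, 3.01 in HDLM-2 and 71.4 in L-428. L-428 stood 29.8-fold above L-540 and 23.7-fold above HDLM-2, but it did not reach 100. These folds rest on signals below the array medians, and with an offset of 50 the log2 differences shrank to -1.20 for HDLM-2 minus L-428 and 1.21 for L-428 minus L-540. The other interferon-induced ligands of CXCR3 did not share this pattern. CXCL9 had 1.51 in L-540, 1.60 in HDLM-2 and 1.60 in L-428, and CXCL11 had 2.04, 4.65 and 3.87 in the same order. CXCL12, the ligand of CXCR4, had 3.07 in L-540, 9.91 in HDLM-2 and 2.63 in L-428. All these are low signals and are not read as an order. CXCL8, which attracts neutrophils, was at or below 3.83 in every line.

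Promoter sequences were set beside the ligands and the receptor with the widest ranges between lines, since genes of this family are classical targets of NF-κB, STAT and interferon signaling. RefSeq promoters of GRCh38.p14 were found for 37 of the 51 members with a single gene, and for 5 of the 10 members above 30, namely CCL22, CCL1, CXCR4, CCR4 and CXCL10. The 250 bases before the annotated start were searched on both strands for the NF-κB motif by its usual consensus, for the STAT motifs TTCNNNGAA and TTCNNNNGAA, for the interferon-stimulated response element GAAANNGAAA, for the AP-1 motif TGANTCA and for TATAAA. Matches of different motifs may overlap. In the sequences below, written 5′ to 3′ along the gene, capitals mark matches of the NF-κB motif and of the interferon-stimulated response element. They show CCL22, CCL1 and CXCL10, each high in a single line, and CCR4, the receptor near the lowest signals in L-540.
CCL22, chr16:57358533-57358782, plus strand: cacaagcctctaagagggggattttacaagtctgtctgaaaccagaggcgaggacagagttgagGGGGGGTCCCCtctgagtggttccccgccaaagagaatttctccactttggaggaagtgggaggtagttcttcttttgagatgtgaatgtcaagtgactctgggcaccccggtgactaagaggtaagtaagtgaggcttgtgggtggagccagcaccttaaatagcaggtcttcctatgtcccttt
CCL1, chr17:34363234-34363483, minus strand: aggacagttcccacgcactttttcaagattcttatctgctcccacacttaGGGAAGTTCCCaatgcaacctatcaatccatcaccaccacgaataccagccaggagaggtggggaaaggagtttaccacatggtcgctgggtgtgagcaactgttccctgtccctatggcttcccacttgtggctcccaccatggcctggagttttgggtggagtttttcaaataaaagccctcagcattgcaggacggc
CXCL10, chr4:76023498-76023747, minus strand: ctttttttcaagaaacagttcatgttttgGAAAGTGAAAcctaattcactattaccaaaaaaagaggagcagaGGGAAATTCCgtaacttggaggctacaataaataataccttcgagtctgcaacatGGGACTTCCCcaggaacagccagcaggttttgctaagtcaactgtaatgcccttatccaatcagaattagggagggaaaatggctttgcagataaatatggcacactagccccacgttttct
CCR4, chr3:32951394-32951643, plus strand: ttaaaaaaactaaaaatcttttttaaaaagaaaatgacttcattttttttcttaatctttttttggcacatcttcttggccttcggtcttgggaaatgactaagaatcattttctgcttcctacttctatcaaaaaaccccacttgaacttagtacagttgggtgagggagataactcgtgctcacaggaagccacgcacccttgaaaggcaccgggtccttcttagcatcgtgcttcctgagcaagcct

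CCL22 had overlapping NF-κB matches that begin 186 and 185 bases before the start. CCL1 had a match that begins 200 bases before the start, overlapped by a match on the other strand. CXCL10 had NF-κB matches that begin 177 and 122 bases before the start, and a match of the interferon-stimulated response element that begins 221 bases before it. CCR4 and CXCR4 had no match of either motif in the window, and none of the 5 promoters had a STAT or AP-1 match. Of the 5, 1 had TATAAA, which was CXCR4. Over all 35114 promoters of this length, 9.96% held the NF-κB motif, 3.02% the interferon-stimulated response element, 6.57% TTCNNNGAA, 5.38% TTCNNNNGAA, 6.57% TGANTCA and 10.7% TATAAA. Over the 37 promoters of members, expressed here or not, 27.0% held the NF-κB motif, 10.8% the interferon-stimulated response element, 18.9% TTCNNNGAA, 5.41% TTCNNNNGAA, 16.2% TGANTCA and 29.7% TATAAA. The share was above that of all promoters for each motif but TTCNNNNGAA, where it was nearly the same, so it was not particular to the NF-κB motif. Related genes of a cluster share sequence, so these promoters are not independent, and a match of letters is a description and not a binding site.

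CCR7 guides lymphocytes and dendritic cells to lymph nodes along CCL19 and CCL21, and it is known to be expressed by the malignant cells of HL. Its signal was 832 in L-540, 1348 in HDLM-2 and 398 in L-428. All 3 lines were above 100, L-428 was the lowest, and HDLM-2 was 3.38-fold above L-428 and 1.62-fold above L-540. None of the pairs was 4-fold apart as deposited. With the 3 arrays quantile normalized, the log2 difference of HDLM-2 minus L-428 was 2.18, and with the arrays shifted to one median it was 2.12, both past 4-fold. The ligands of CCR7 had low signals, with 1.74, 2.14 and 4.61 for CCL19 in L-540, L-428 and HDLM-2 and 4.52 for CCL21 in each line.

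CXCR4, the receptor that holds leukocytes in the bone marrow through CXCL12, had a signal of 78.7 in L-540, 36.2 in HDLM-2 and 126 in L-428. Its order was the reverse of that of CCR7 for L-428 and HDLM-2, with L-428 3.49-fold above HDLM-2. This is below 4-fold, and the values of L-540 and L-428 were 1.60-fold apart. When quantile normalized, CXCR4 had 93.2 in L-428 and was below 100 in every line.

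CCR4, the receptor of CCL17 and CCL22 on helper and regulatory T cells, had a signal of 1.30 in L-540, 48.9 in HDLM-2 and 105 in L-428. L-540 was low, 80.9-fold below L-428 and 37.5-fold below HDLM-2, where the latter value does not reach 100. The signal in L-540 lies at the 5.77th percentile of its array and is too low for the folds to be exact. HDLM-2, with the highest signals of both ligands, was 2.16-fold below L-428 in the receptor.

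CCR10, a receptor of skin-homing T cells and of plasma cells, had a signal of 10.002 in L-540, 66.9 in HDLM-2 and 6.74 in L-428. HDLM-2 was the high line, 6.69-fold above L-540 and 9.92-fold above L-428, without reaching 100 and against low signals. Its ligand CCL28 had 2.04 in each line, and the cluster shared by CCL27 and an unnamed locus was at or below 3.64. CXCR3, the receptor of CXCL9, CXCL10 and CXCL11, had 11.005 in L-540, 10.8 in HDLM-2 and 17.7 in L-428, values that lay within 1.64-fold of each other.

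**Figure D3:**
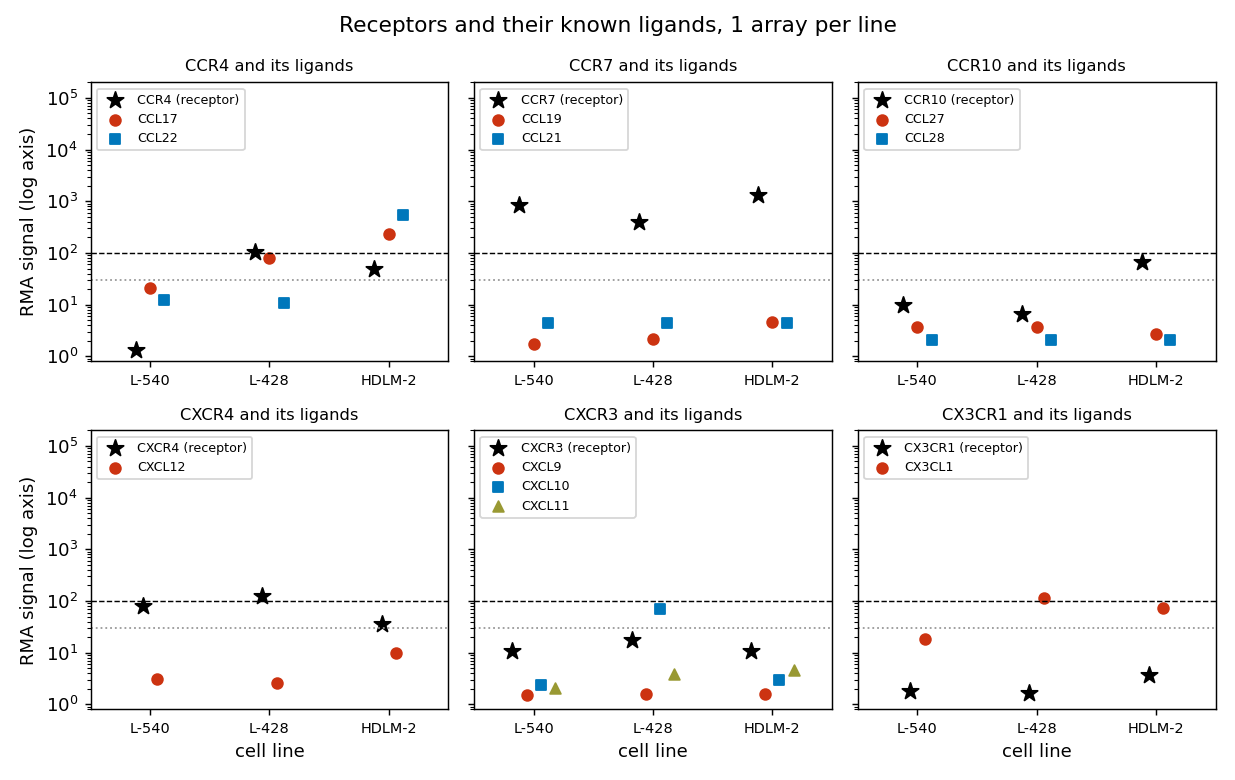
RMA signal intensity (log axis) of 6 receptors (stars) and their ligands (other symbols) in each line, 1 array per line. Dashed and dotted lines mark signals of 100 and 30, and levels of different clusters are not compared. CCR4 and CCL17 are both above 30 in L-428 and HDLM-2, while the ligands of CCR7, CXCR4 and CCR10 are below 10 in all lines.

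Over 23 known pairs of a ligand and a receptor, with 13 receptors, 2 pairs had both partners above 30 in the same line. These were CCR4 with CCL17, in L-428 and HDLM-2, and CCR4 with CCL22, in HDLM-2. In HDLM-2 the receptor had 48.9 and the ligands 233 and 535. In the other pairs at least 1 partner stayed below this level in every line. CX3CL1 had 114 in L-428 and 74.2 in HDLM-2, whereas its receptor CX3CR1 had 1.63 and 3.74. CCL5 reached 77.2 in L-428, whereas CCR1, a receptor it shares with other CC chemokines, was at or below 1.91. The level of 30 is a choice made here and not a limit of detection.

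Of the 59 clusters, 46 were below 10 in all 3 lines (78.0%), with values from 0.922 to 9.91, while 49.3% of all clusters were. Probes differ between clusters in how strongly they bind, so nothing is read from these shares. The 46 were 17 of 21 CC ligand clusters, 11 of 14 CXC ligand clusters, the cluster of XCL1 and XCL2, 11 of 16 receptor clusters and 6 of 6 clusters of atypical receptors. Among them were CCL2, which recruits monocytes, with 1.93 in each line, CCL20, the ligand of CCR6, with 1.498, and CXCL13, the chemokine of B cell follicles, with 1.36. Its receptor CXCR5 had 3.17 in L-540, 3.43 in HDLM-2 and 2.75 in L-428. The atypical receptor CCRL2 had 6.48 in L-540, 1.62 in HDLM-2 and 0.922 in L-428, the only atypical receptor whose values were not identical in all lines. Another 3 clusters, CXCR3, CXCL16 and CXCL5, had their highest signal between 10 and 30.

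Identical values were frequent. Of the members, 18 had the same value in all 3 lines (30.5%, against 31.5% of all clusters) and 19 had the same value in 2 lines. A tie does not show equal expression, and a signal near the lowest of the array does not show that a gene is silent.

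**Figure D4:**
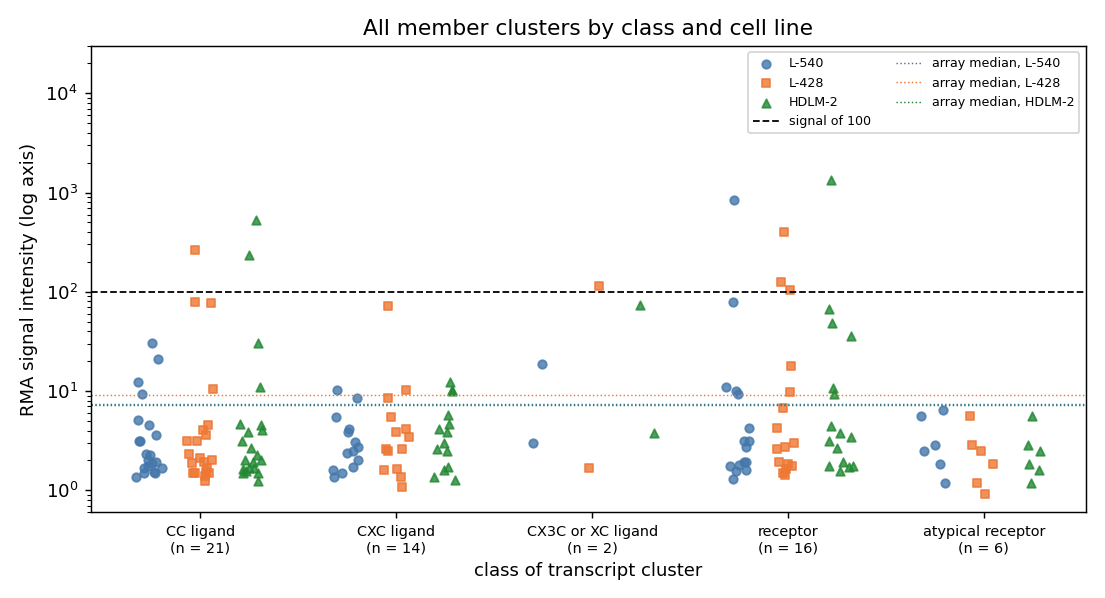
RMA signal intensity (log axis) of all 59 member clusters by class, 1 point per cluster and line. Dotted lines are the medians of the arrays and the dashed line is a signal of 100. Most points of each class except the pair of CX3C and XC clusters lie below the array medians, and no atypical receptor reaches 10.

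Genes that act after chemokine receptors were taken from a list of 32, of which 29 had a cluster. Of these, 10 were above 100 in at least 1 line and 4 in all lines. GNAI2, an inhibitory G protein subunit of these receptors, had 243 in L-540, 203 in HDLM-2 and 197 in L-428, and RAC2, a GTPase of leukocyte movement, had 642, 498 and 306. GNB1, a G protein beta subunit, had an identical 365 in all lines. Larger differences were found in 4 genes. GNG2, a G protein gamma subunit, had 2.26 in L-540, 14.0 in HDLM-2 and 207 in L-428. PIK3CG, the kinase subunit activated by G protein beta and gamma subunits, had 38.2, 14.7 and 216 in the same order. GRK6, a kinase that desensitizes receptors, had 47.6, 88.1 and 227, and ELMO1, a partner of DOCK proteins in cell movement, had 93.7, 23.9 and 197. L-428 was the highest line in all 4. In L-428 against L-540, 3 of the 29 genes were higher and 0 lower, and in HDLM-2 against L-428, 0 were higher and 3 lower, the direction in which the larger shares of all clusters lay as well (2.04% and 2.93%). In HDLM-2 against L-540 none was 4-fold apart with the higher signal above 100.

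Of 23 genes that process, modify or present chemokines or bind related ligands, 20 had a cluster, 2 were above 100 in at least 1 line and none of these was 4-fold apart. CD74, the invariant chain and receptor of the chemokine-like cytokine MIF, had 1688 in L-540, 2026 in HDLM-2 and 728 in L-428. CMTM6, a membrane protein of a chemokine-like family, had 106 in L-540, 106 in HDLM-2 and 92.5 in L-428. EXT2, an enzyme of heparan sulfate synthesis, had 55.1 in each line. PPBP, a platelet chemokine that the naming rule does not reach, had 2.19 in L-540, 4.19 in HDLM-2 and 2.19 in L-428.

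The differences of 4-fold were recomputed with other processing. CCL22 in HDLM-2 kept a log2 difference of 3.23 or more from L-540 and of 3.27 or more from L-428 under each setting tried. CCL1 in L-428 kept 2.40 or more from L-540, and in HDLM-2 minus L-428 it ranged from -4.57 to -2.36. CCL17 in HDLM-2 minus L-540 was 3.48 as deposited and 1.998 with an offset of 50, just short of 4-fold. From L-428 it was 1.56 as deposited and 2.31 when quantile normalized, the latter past 4-fold. CX3CL1 and CCR4 in L-428 were close to 100. With the arrays shifted to one median they were 98.0 and 90.2 in L-428, and quantile normalized they were 84.3 and 78.1, so the threshold of 100 was missed although their log2 differences from L-540 stayed at 2.06 or more and 5.92 or more with these scalings.

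**Figure D5:**
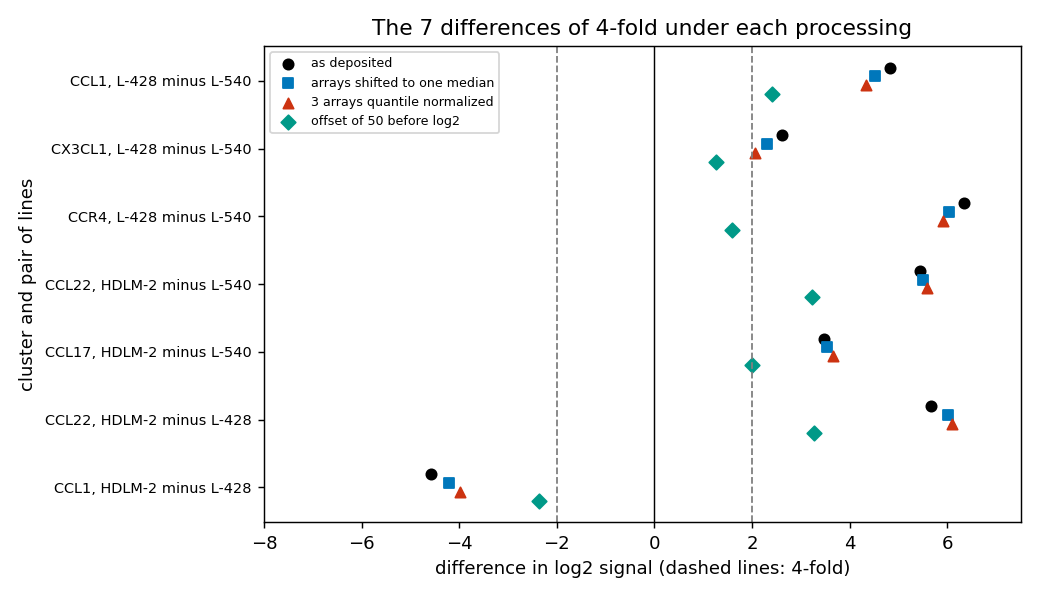
Difference in log2 signal for the 7 differences of 4-fold, as deposited and with 3 other kinds of processing. Dashed lines mark 4-fold, and the offset of 50 shrinks every difference toward 0, with CX3CL1, CCR4 and, narrowly, CCL17 falling inside the lines.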

How the data were processed

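Total RNA of each line was analyzed on 1 exon array. The deposited values are linear signal intensities of 22011 transcript clusters that the authors computed with RMA in Affymetrix Expression Console, which corrects the background, quantile normalizes and summarizes probes. Their build was hg18, per the submitters' processing notes. Per the paper, RMA was run on the HL arrays jointly with arrays of blood, B cells and P493-6 cells, and neither the labels nor the paper say whether the deposited table stems from that run. Clusters were named from the platform annotation, and symbols were updated by Entrez identifier through RefSeq (GRCh38.p14), which held all 59 members. A list gene with several clusters was given the cluster with the highest mean. Signals were used as deposited. No p-value was computed, and 3 arrays limit the precision. Members, lists, pairs and thresholds were chosen with earlier results of these data known. Named were members above 100 in at least 1 line, those above 30 with a 4-fold spread, their known partners, and list genes above 100 with a 4-fold spread or with the 3 highest means. Other genes, such as CCL5, CXCL8, CCL2, CCRL2 and NKG7, were named after their values were seen. The counting of differences was checked on mean signals with known folds put in. These held no array noise, so the check covers the code only. Alternatives were thresholds of 50 and 200, folds of 2 and 8, no filter, an offset of 50, one array median, quantile normalization and single-gene clusters. The work was done in Python 3.11.15 with pandas 2.3.3, numpy 2.4.6 and matplotlib 3.10.9.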

Additional observations from a re-analysis of the deposited data

How the results depend on the processing

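With a threshold of 50, 2 members passed in L-540, 5 in HDLM-2 and 8 in L-428, and with 200 there were 2 in L-428. With one array median 3 passed in L-428 and with quantile normalization 2. For L-428 higher than L-540 the count of 3 became 1 with a threshold of 200, with an offset of 50, with one median and with quantile normalization. It became 2 at 8-fold and 4 with no filter or a threshold of 50. For L-428 lower the count of 0 became 1 at 2-fold and with no filter. For HDLM-2 higher than L-540 the count was 4 with no filter, 3 with a threshold of 50 and 1 with the offset. For HDLM-2 higher than L-428 it was 3 at 2-fold and when quantile normalized, and 2 with a threshold of 50, no filter or one median, and for HDLM-2 lower it was 3 at 2-fold and 2 with a threshold of 50 or no filter. The median log2 difference of the members, 0 as deposited, was with one median 0.36 for HDLM-2 minus L-428, -0.31 for L-428 minus L-540 and 0.049 when L-540 was subtracted from HDLM-2, which are the shifts applied to the arrays, and 0.19 and -0.17 in the first and second of these pairs with quantile normalization. Of 81 recomputed differences of named genes, 71 kept their side of the threshold, 7 fell below it and 3 rose above it. Only 7 of the 27 named differences were counted as deposited and could fall, so the 71 are mostly differences that were never counted. CX3CL1 and CCR4 in L-428 minus L-540 fell with the offset, with one median and with quantile normalization. CCL17 in HDLM-2 minus L-540 fell with the offset. None of the differences of 4-fold changed sign, whereas among those that were not counted 1 did, CX3CL1 in HDLM-2 minus L-428, from -0.62 as deposited to 0.24 with quantile normalization. The differences lost with one median or quantile normalization were lost because CX3CL1 and CCR4 fell under 100 in L-428. Those lost with the offset were lost through its shrinking of low values. In the count of members passing in L-428, CXCR4 fell under 100 as well when quantile normalized, with 93.2. The cause was not tested for the remaining changes. No paired analysis was possible because there was 1 array for each line.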

Other observations

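A few genes of the lists stood out below a signal of 100 and were named after their values were seen. DPP4, the peptidase that trims the ends of CCL22 and CXCL10 among others, had 81.4 in L-540, 5.31 in HDLM-2 and 3.18 in L-428. L-540 was the only high line. RGS1 and RGS2, which shorten G protein signals, had 20.6 and 21.5 in L-428, while in L-540 they had 1.87 and 1.57 and in HDLM-2 2.14 and 5.92. GNAQ, a G protein subunit of another class, had 38.7 in L-540 and 5.17 in each of the other lines.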
